A study of Mus musculus with 6 samples.

Results

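Interferon-stimulated genes are the genes that cells switch on when interferon, a secreted antiviral signal, binds its receptors. A list of 34 such genes was followed here in cells prepared from mouse lung as alveolar epithelial type 2 (AT2) cells, the surfactant-producing cells of the alveolus. Members were found by exact gene symbol, and the values of all listed transcripts of a gene were summed. Of the 34 members, 33 have rows among the 13931 listed genes, while Mx2 was not analysed here. The level of a gene is given as FPKM, which divides the fragments of a transcript by its length and by the mapped fragments of the library, so levels can be compared between genes. The bleomycin group is 3 C57BL/6 mice exposed repeatedly to bleomycin, a drug that cuts DNA and injures the lung, at 1 U/kg, and the PBS group is 3 C57BL/6 mice exposed repeatedly to phosphate-buffered saline. Every library holds the RNA of a different mouse, and no transgene or mutation is named for either group. The sources used here do not give the age of the mice, how the AT2 cells were isolated, the interval between exposures or when the lungs were taken. The question the comparison addresses is which messenger RNAs of these preparations differ after repeated bleomycin.

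Type I interferons (alpha and beta) and type III interferons (lambda) signal through Jak1 and Tyk2 to a complex that holds Stat2 and Irf9 and binds the interferon-stimulated response element (ISRE). Interferon gamma, the type II interferon, signals through Jak1 and Jak2 to a STAT dimer, which binds the gamma-activated site (GAS). The induced genes sense viral nucleic acids, block viral entry, translation and assembly, and amplify or restrain the signal itself. In the lung, epithelial cells, macrophages, lymphocytes and endothelium can all respond.

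The response element is visible in the DNA just upstream of several members. Promoter sequences, from 250 bases before to 50 bases after the annotated start, were taken from RefSeq (GRCm38.p6), and 24 of the 34 members matched one by symbol. The letters GAAANNGAAA, or TTTCNNTTTC on the other strand, stand for the core of the ISRE. The stretches below hold such matches in capitals with up to 20 flanking bases, each read 5′ to 3′ in the direction of its gene. The first set shows 3 members that rose with bleomycin, and the second set shows 3 that did not pass the test or were not tested, for comparison of the same letters in genes with different outcomes.
Isg15, chr4:156200855-156200916, minus strand: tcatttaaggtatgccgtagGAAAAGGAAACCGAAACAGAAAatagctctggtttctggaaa
Oas1a, chr5:120907526-120907565, minus strand: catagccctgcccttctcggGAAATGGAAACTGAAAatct
Gbp3, chr3:142559979-142560034, plus strand: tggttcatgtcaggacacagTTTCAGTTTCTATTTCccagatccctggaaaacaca
Ifit1, chr19:34640765-34640833, plus strand: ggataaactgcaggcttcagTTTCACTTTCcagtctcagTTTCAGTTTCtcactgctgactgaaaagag
Ifit3, chr19:34583353-34583436, plus strand: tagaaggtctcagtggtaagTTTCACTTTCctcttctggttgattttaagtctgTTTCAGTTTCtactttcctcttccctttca
Stat2, chr10:128270256-128270305, plus strand: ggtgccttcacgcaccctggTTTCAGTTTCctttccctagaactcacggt
In Isg15, 3 overlapping matches run together, the first of them 78 bases before the start. Oas1a has 2 overlapping matches from 20 bases before its start and Gbp3 has 2 from 45 bases before. In Ifit1 and Ifit3 the 2 matches stand apart, from 104 and 156 bases before the start. A match of letters is a description of the sequence, not evidence of a working site.

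Interferon-stimulated genes were higher in the bleomycin preparations in part, and none was called lower. Of the 30 members that could be tested, 13 rose, none fell and 17 did not pass. Over all 12326 tested genes 15.2% were called higher, 7.34% lower and 22.5% in either direction (limma, Benjamini-Hochberg adjusted p under 0.05). With the libraries scaled to equal medians the calls over all genes were 1475 higher and 1412 lower, against 1871 and 905 unscaled, and 10 members rose and none fell. The 13 that rose were Irf7, Irf9, Isg15, Trim25, Dhx58, Oas1a, Oas2, Adar, Zbp1, Gbp3, Dtx3l, Parp14 and Ifi44. Oas1a and Zbp1 had the largest log2 fold changes of the 13, and Ifit2, Ifit3 and Ifih1 were among those that did not pass. The median log2 fold change was 0.60 over the 30 tested members and 0.64 over the 33 listed, against 0.09 over all tested genes and 0.10 over all listed genes. Fold changes throughout are differences of log2(FPKM + 1), bleomycin minus PBS, a scale that shrinks the change of genes with low levels.

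Separation of the groups was wider than the calls. In 20 of the 33 listed members all 3 bleomycin values lay above all 3 PBS values, none lay wholly below, and 13 overlapped. Among all listed genes 27.0% lay wholly above and 15.6% wholly below, and among all tested genes 27.2% and 16.4%. Summed over the 13 members that rose, the level was 150, 143 and 138 FPKM in bleomycin libraries 1, 2 and 3, against 60.0, 64.7 and 59.3 FPKM in PBS libraries 1, 2 and 3, a sum chosen by the call and given only as a description. Summed over all 33 listed members, the level ranged over 450 to 775 FPKM in bleomycin libraries and 415 to 689 FPKM in PBS libraries, and these ranges overlapped. Among the tested members Ifi44 alone was at 1 FPKM or more in all 3 bleomycin libraries and in none of the PBS libraries. The test took genes at 1 FPKM or more in at least 3 of 6 libraries, so Ifi44 entered it through the bleomycin libraries alone. With 3 libraries a group, an exact two-sided permutation test of a single gene cannot go below 0.10, so all adjusted p come from limma, whose fit shares the spread of all tested genes.

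Markers of cells other than AT2 differed between the groups, and not all in 1 direction, as 3 of 6 fibroblast markers fell. The summed level of 12 leukocyte markers was 1250 to 1790 FPKM in bleomycin libraries and 78.3 to 107 FPKM in PBS libraries, and 11 of the 12 rose. Ptprc, the gene of the leukocyte antigen CD45, stood at 249, 123 and 107 FPKM in bleomycin libraries and 0.0706, 3.81 and 4.85 FPKM in PBS libraries. All 9 endothelial markers rose, with sums of 245 to 433 FPKM in bleomycin libraries and 31.5 to 33.2 FPKM in PBS libraries, while all 9 AT2 markers fell, with sums of 3120 to 7240 FPKM in bleomycin libraries and 17000 to 25000 FPKM in PBS libraries. The part of these cells in the level of each interferon-stimulated gene was not tested. In such bulk preparations fewer cells of a type and less RNA per cell cannot be told apart.

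**Figure D1:**
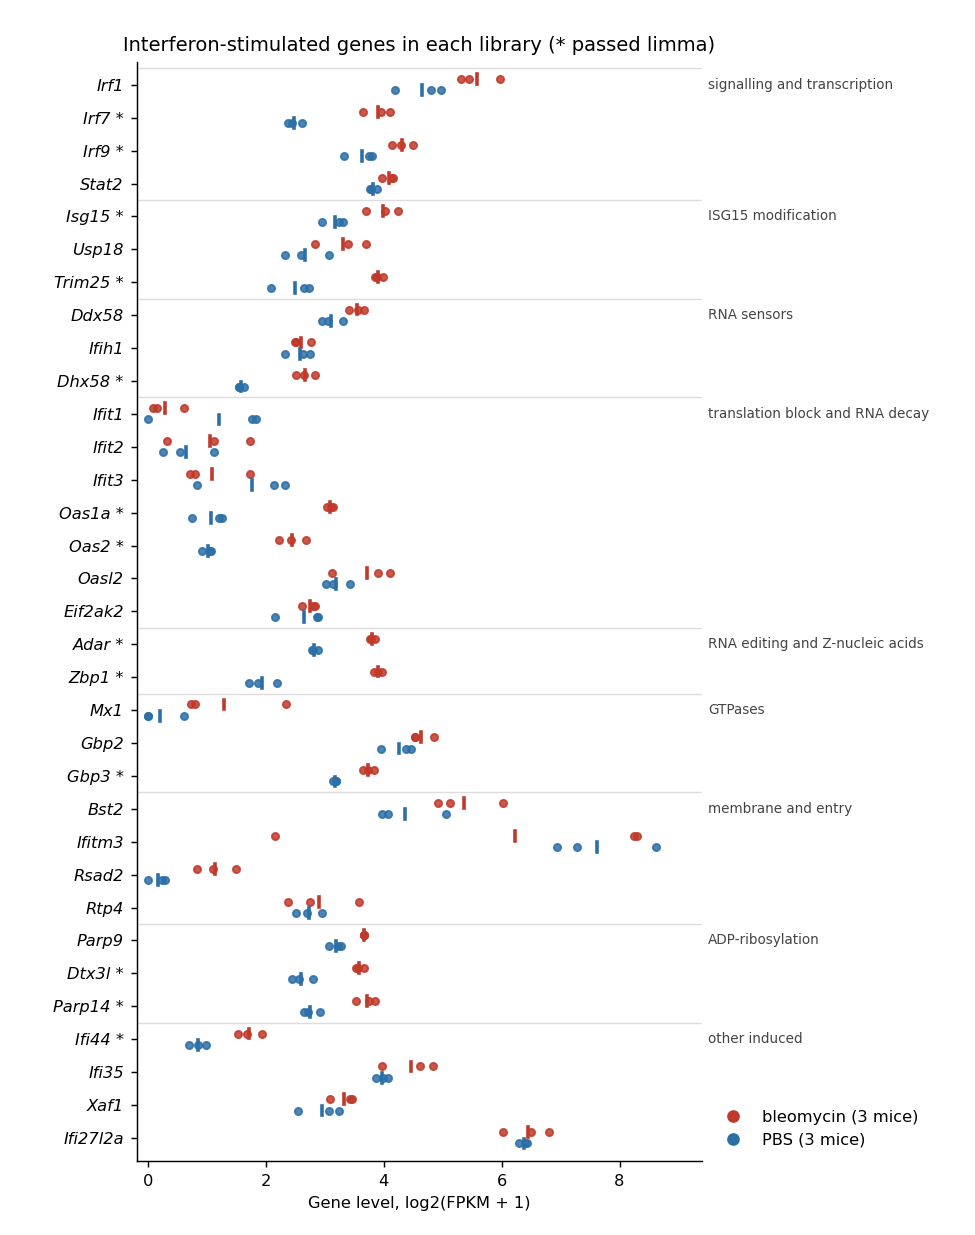
Level of each listed interferon-stimulated gene on the log2(FPKM + 1) axis, grouped by role, with 1 point per library (bleomycin above PBS in each row), a vertical tick at the group mean and an asterisk for genes that passed limma. Zbp1, Oas1a, Adar and Trim25 show 2 separate clusters of points, while Ifitm3 has 1 bleomycin library far to the left of the others.

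The 4 transcription factors among the members lay wholly above the PBS range, and 2 of the 4 passed. Beside them, 27.0% of all listed genes lay wholly above, and 15.2% of all tested genes were called higher. Irf7, which amplifies the production of type I interferon, stood at 16.1, 14.5 and 11.5 FPKM in bleomycin libraries 1, 2 and 3, against 4.15, 5.07 and 4.44 FPKM in PBS libraries 1, 2 and 3. Its lowest bleomycin value was more than any PBS value, and it rose by 1.43 ± 0.18 (log2 fold change ± SE, adjusted p = 0.00259). Irf9, the DNA-binding subunit of the complex that reads the ISRE, was at 21.5, 18.6 and 16.7 FPKM with bleomycin and 12.9, 12.5 and 8.97 FPKM with PBS, a rise of 0.69 ± 0.19 (adjusted p = 0.0471). That call was lost when any 1 of the 6 libraries was left out (adjusted p 0.0586 to 0.132), and Irf9 overlaps Rnf31 on the same strand by 123 bases. Irf1, an early target of interferon gamma, had 61.6, 42.8 and 38.7 FPKM in bleomycin libraries and 27.0, 30.2 and 17.2 FPKM in PBS libraries. Its difference of 0.93 ± 0.27 did not pass (adjusted p = 0.0538), although the groups did not overlap. Stat2, a subunit of the type I complex, was at 16.5, 14.6 and 16.8 FPKM with bleomycin and 13.7, 12.8 and 12.6 FPKM with PBS (0.27 ± 0.14, adjusted p = 0.217). The Stat2 levels were close between groups relative to those of Irf7.

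Isg15 encodes a ubiquitin-like protein that is attached to other proteins. It had 17.9, 15.2 and 12.0 FPKM in bleomycin libraries and 6.71, 8.89 and 8.43 FPKM in PBS libraries, and it rose by 0.82 ± 0.20 (adjusted p = 0.0302). The groups did not overlap, but the call was lost without bleomycin library 1 or 2 or any 1 PBS library (adjusted p 0.0575 to 0.0903). Trim25, a ubiquitin ligase that activates the RNA sensor RIG-I, reached 13.4, 13.7 and 14.9 FPKM with bleomycin, against 3.23, 5.61 and 5.27 FPKM with PBS. All bleomycin values of Trim25 were above every PBS value, with a rise of 1.42 ± 0.21 (adjusted p = 0.00498). Usp18, the protease that removes Isg15 from proteins and also damps the type I receptor, was at 11.9, 9.48 and 6.12 FPKM with bleomycin and 7.37, 3.98 and 5.06 FPKM with PBS. Its groups overlapped through bleomycin library 3 and PBS library 1, and it did not pass (0.64 ± 0.29, adjusted p = 0.168).

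Of the 3 cytoplasmic RNA helicases, Dhx58 passed. Dhx58 encodes LGP2, a helicase without signalling domains that modulates the other two, and it stood at 6.08, 4.72 and 5.28 FPKM in bleomycin libraries and 1.92, 1.91 and 2.08 FPKM in PBS libraries. The PBS values lay within a narrow range and all bleomycin values were above them, a rise of 1.09 ± 0.16 (adjusted p = 0.00501). An antisense gene, Dhx58os, shares 2637 bases of this locus. Ddx58, the gene of RIG-I, was at 10.8, 11.7 and 9.58 FPKM with bleomycin and 6.74, 7.32 and 8.90 FPKM with PBS, higher without overlap but not past the threshold (0.44 ± 0.17, adjusted p = 0.114). Ifih1, the gene of MDA5, had 4.71, 4.64 and 5.78 FPKM with bleomycin and 5.69, 4.02 and 5.21 FPKM with PBS. The Ifih1 values were interleaved, and the fold change was 0.02 ± 0.19 (adjusted p = 0.945).

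Oas1a and Oas2, oligoadenylate synthetase genes whose products make the second messenger that activates RNase L, both rose. Oas1a was at 7.15, 7.77 and 7.60 FPKM in bleomycin libraries and 1.30, 1.37 and 0.682 FPKM in PBS libraries. Oas1a rose by 2.02 ± 0.19 (adjusted p = 0.000786), with each bleomycin library near the same level. Oas2 had 3.68, 4.39 and 5.43 FPKM with bleomycin and 1.09, 1.06 and 0.882 FPKM with PBS, a rise of 1.44 ± 0.18 (adjusted p = 0.00254). Oas1a and Oas2 lie in the same chromosome 5 cluster, 146403 bases apart (chr5:120896256-120907521 and chr5:120730333-120749853, mm10). Oas1a has near-identical neighbours, so its reads may be shared with them. The 3 listed neighbours outside the members, named after their values were seen, did not all follow it. Oas1b had 1.12, 1.21 and 1.16 FPKM with bleomycin and 1.33, 0.678 and 1.15 FPKM with PBS and did not pass (0.09, adjusted p = 0.759). Oas1c had 2.98, 2.88 and 3.49 FPKM with bleomycin and 1.94, 1.05 and 1.77 FPKM with PBS and did not pass either (0.69, adjusted p = 0.0525). Oas1g had 1.29, 1.82 and 1.35 FPKM with bleomycin and 0.49, 0.357 and 0 FPKM with PBS and rose (0.97, adjusted p = 0.0198). Oasl2, a related gene with ubiquitin-like domains, was at 13.9, 16.2 and 7.70 FPKM with bleomycin and 9.69, 7.08 and 7.76 FPKM with PBS. It did not pass (0.52 ± 0.29, adjusted p = 0.238) and overlapped through bleomycin library 3, without which the change was 0.81 (adjusted p = 0.0414).

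The Ifit proteins bind foreign RNA and block its translation. Ifit2 stood at 0.247, 2.32 and 1.17 FPKM in bleomycin libraries and 0.186, 0.451 and 1.17 FPKM in PBS libraries (0.42 ± 0.40, adjusted p = 0.495). Ifit3 had 2.32, 0.733 and 0.630 FPKM with bleomycin and 4.0, 0.768 and 3.41 FPKM with PBS (-0.69 ± 0.47, adjusted p = 0.340). Both were low and overlapped. Ifit1 fell below the filter on low values, with 0.109, 0.529 and 0.0577 FPKM in bleomycin libraries and 0, 2.38 and 2.54 FPKM in PBS libraries, where the value 0 is as listed. The 3 genes lie in 1 cluster on chromosome 19 (chr19:34550710-34650009), Ifit2 and Ifit3 7112 bases apart and Ifit3 and Ifit1 52140 bases apart, and none was called. Ifit3b, a near-identical copy of Ifit3 chosen after its values were seen, had 4.90, 4.46 and 4.10 FPKM with bleomycin and 5.23, 2.72 and 4.79 FPKM with PBS, and the sources used here do not say how reads were split between the copies. Eif2ak2, the gene of the kinase PKR that halts translation on sensing double-stranded RNA, was at 6.15, 5.08 and 5.93 FPKM with bleomycin and 6.30, 3.44 and 6.41 FPKM with PBS. Its values overlapped, with a change of 0.11 ± 0.24 (adjusted p = 0.785).

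Both members that act on double-stranded RNA editing or on Z-form nucleic acids rose, beside 15.2% of all tested genes. Zbp1, a sensor of Z-form nucleic acids that can start necroptosis, had 14.6, 13.9 and 13.2 FPKM in bleomycin libraries and 3.56, 2.65 and 2.29 FPKM in PBS libraries. It rose by 1.97 ± 0.18 and had the smallest adjusted p of the members (0.000671). Adar, the enzyme that converts adenosine to inosine in double-stranded RNA, was at 13.4, 12.8 and 12.6 FPKM with bleomycin and 6.35, 5.88 and 5.98 FPKM with PBS, a rise of 0.98 ± 0.14 (adjusted p = 0.00408). In Adar and Zbp1 the gap between the groups was wide beside the spread within either group. The Adar locus (chr3:89715022-89753446) overlaps Chrnb2 on the opposite strand by 7252 bases, and the sources used here do not say whether reads were counted by strand.

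Among the interferon-induced GTPases, Gbp3 passed. Gbp3 and Gbp2, guanylate-binding proteins that coat intracellular microbes and their vacuoles, are neighbours on chromosome 3, 47393 bases apart. Gbp3 was at 12.3, 11.5 and 13.2 FPKM in bleomycin libraries and 8.13, 7.74 and 8.06 FPKM in PBS libraries, a rise of 0.57 ± 0.14 (adjusted p = 0.0331). The groups were well apart, yet the call was lost when any 1 library was left out (adjusted p 0.0643 to 0.0862). Gbp2 had 22.1, 27.7 and 22.0 FPKM with bleomycin and 19.7, 14.4 and 21 FPKM with PBS, higher in each bleomycin library but not past the threshold (0.37 ± 0.20, adjusted p = 0.221). Mx1, an antiviral dynamin-like GTPase whose gene carries a deletion in many inbred mouse strains, C57BL/6 among them, was below the filter. It stood at 4.07, 0.735 and 0.648 FPKM with bleomycin and was listed at 0, 0.524 and 0 FPKM with PBS. The only Mx1 value above 1 FPKM came from bleomycin library 1.

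No member that acts at membranes or on viral entry passed. Bst2, or tetherin, which holds budding virus at the cell surface, was at 33.7, 29.2 and 64.1 FPKM in bleomycin libraries and 14.7, 32.4 and 15.7 FPKM in PBS libraries (0.99 ± 0.40, adjusted p = 0.126). The groups overlapped through PBS library 2. Ifitm3, which blocks fusion of virus with endosomes, was the most abundant member by mean in both groups, with 313, 301 and 3.42 FPKM with bleomycin and 391, 121 and 155 FPKM with PBS. Bleomycin library 3 was far below the other 5, and the fold change of -1.39 ± 1.64 (adjusted p = 0.587) became 0.65 without that library (adjusted p = 0.415). Its close relative and neighbour Ifitm2, chosen after its values were seen, had 104, 103 and 109 FPKM with bleomycin and 8.65, 101 and 1.65 FPKM with PBS, so that low values fell in different libraries for each gene, and the split of reads between them is uncertain. Rsad2, or viperin, which makes a chain-terminating nucleotide, was below the filter with 1.15, 1.80 and 0.780 FPKM with bleomycin and 0, 0.171 and 0.217 FPKM with PBS. In the fit with no filter Rsad2 was called higher (0.97 ± 0.21, adjusted p = 0.0208), whereas Mx1 and Ifit1 were not (adjusted p = 0.146 and 0.243). Rtp4, a chaperone of G protein-coupled receptors, overlapped between groups with 10.9, 4.17 and 5.74 FPKM with bleomycin and 5.49, 4.71 and 6.75 FPKM with PBS (0.17 ± 0.33, adjusted p = 0.736).

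The 3 ADP-ribosylation genes sit together on chromosome 16. Each was higher in every bleomycin library than in any PBS library, as were 27.0% of all listed genes. Parp14, a mono-ADP-ribosyltransferase (chr16:35832874-35871544), had 10.5, 12.5 and 13.4 FPKM in bleomycin libraries and 5.24, 6.51 and 5.54 FPKM in PBS libraries, a rise of 0.96 ± 0.17 (adjusted p = 0.00986). Dtx3l, a ubiquitin ligase that works in a complex with Parp9 (chr16:35926511-35939151), was at 11.7, 10.8 and 10.5 FPKM with bleomycin and 4.43, 4.91 and 5.91 FPKM with PBS, a rise of 0.99 ± 0.16 (adjusted p = 0.00757). Their fold changes were near each other. Parp9 (chr16:35938470-35972605) was at 11.7 FPKM in each bleomycin library and at 7.37, 8.70 and 8.36 FPKM in PBS libraries. Its difference of 0.47 ± 0.14 did not pass (adjusted p = 0.0592) but did with a filter of 5 FPKM (adjusted p = 0.0471) or with library weights (adjusted p = 0.045). Dtx3l and Parp9 are read from opposite strands and their 5′ ends share 682 bases.

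Of the remaining 4 members, Ifi44 passed. Ifi44 stood at 2.21, 2.79 and 1.87 FPKM in bleomycin libraries and 0.971, 0.623 and 0.786 FPKM in PBS libraries, a rise of 0.87 ± 0.18 (adjusted p = 0.0177). The call was lost without bleomycin library 2, PBS library 2 or PBS library 3 (adjusted p 0.0563 to 0.0605). Ifi35, which forms a complex with Nmi, had 23.4, 27.4 and 14.6 FPKM with bleomycin and 15.7, 13.5 and 14.9 FPKM with PBS. It overlapped through bleomycin library 3 (0.49 ± 0.24, adjusted p = 0.194), without which it was higher by 0.75 (adjusted p = 0.0313). Xaf1, a binding partner of the apoptosis inhibitor XIAP, was at 9.70, 10 and 7.44 FPKM with bleomycin and 8.43, 4.81 and 7.35 FPKM with PBS (0.37 ± 0.23, adjusted p = 0.301). Ifi27l2a was abundant in both groups, with 64.2, 111 and 89.0 FPKM with bleomycin and 85.4, 77.2 and 83.3 FPKM with PBS, and its change of 0.07 ± 0.22 did not pass (adjusted p = 0.857). The Xaf1 and Ifi27l2a values overlapped between groups.

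**Figure D2:**
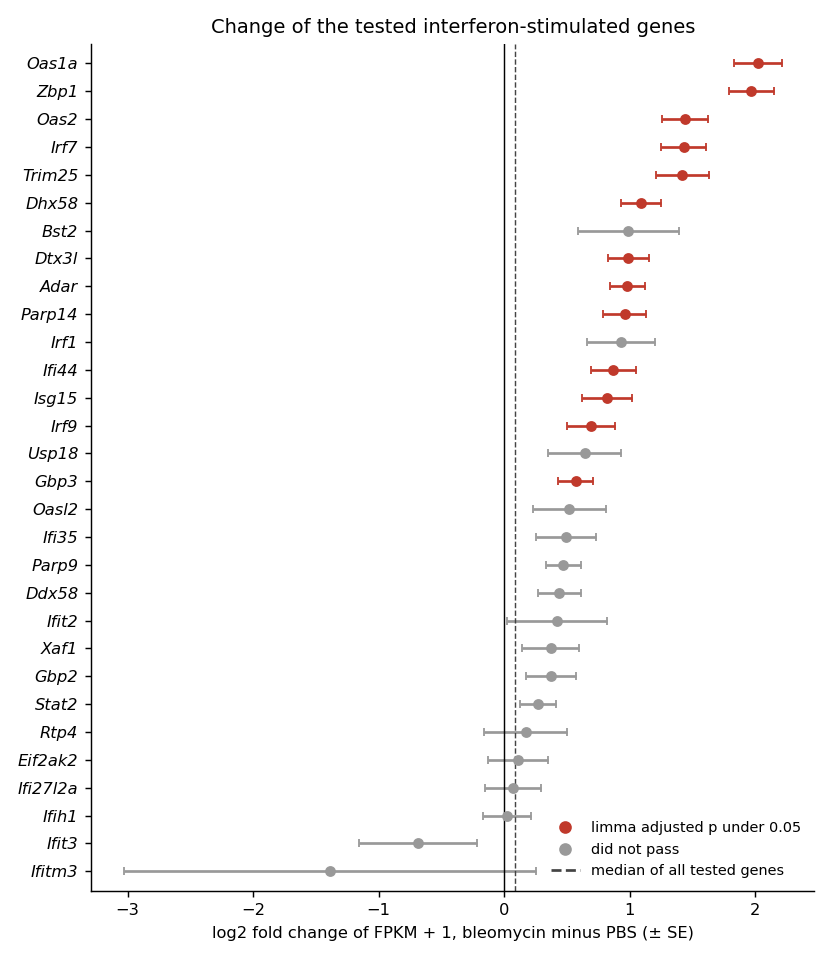
Log2 fold change of FPKM + 1 (bleomycin minus PBS) with its SE for the 30 tested members, ordered by size, red where the limma adjusted p is under 0.05, with a dashed line at the median of all tested genes. The 13 called members run from 0.57 (Gbp3) to 2.02 (Oas1a), Bst2 and Irf1 lie among them with wider error bars, and Ifitm3 has the widest bar.

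The level of the members varied more between genes than within a group. Mean levels ran over 0.232 to 206 FPKM (median 11.7) in bleomycin libraries and 0.129 to 223 FPKM (median 5.65) in PBS libraries. Members with a mean of 10 FPKM or more numbered 19 with bleomycin and 8 with PBS. Ifitm3 and Ifi27l2a had the highest means in both groups. The median coefficient of variation over members was 16.8% within the bleomycin group and 18.9% within the PBS group. Bleomycin library 3 held the lowest of the 3 bleomycin values for 19 of the 33 members, against 6 for library 1 and 8 for library 2. Without library 3 Oasl2 and Ifi35 gained a call and Irf9 and Gbp3 lost theirs, so that 13 members rose, not the same 13.

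A call under each alternative setting that tested the gene, and with any 1 library left out, was held by 9 members: Irf7, Trim25, Dhx58, Oas1a, Oas2, Adar, Zbp1, Dtx3l and Parp14. Over the leave-one-out fits their adjusted p stayed under 0.05, with the highest for Parp14 (0.0413). The other 4, Isg15, Irf9, Gbp3 and Ifi44, lost their calls without single libraries and also under other settings. With equal medians and with quantile normalization the adjusted p was 0.071 and 0.0583 for Isg15, 0.114 and 0.076 for Irf9, and 0.0994 and 0.0803 for Gbp3. Ifi44 lost its call with quantile normalization (adjusted p = 0.0822), and Irf9 also with the highest transcript (0.13) and without the variance trend (0.0514).

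Several members are listed as more than 1 transcript, which allows the rise to be followed by isoform. Each of the 3 listed Adar transcripts lay without overlap above its PBS values. Transcripts were not tested singly. Adar-002, with an open reading frame of 1152 codons, averaged 7.11 ± 0.827 FPKM in bleomycin libraries and 2.94 ± 0.451 FPKM in PBS libraries (mean ± SD, n = 3 each), Adar-001 (1178 codons) averaged 4.39 ± 0.917 FPKM with bleomycin and 2.53 ± 0.383 FPKM with PBS, and the shorter Adar-005 (930 codons) averaged 1.45 ± 0.251 FPKM with bleomycin and 0.598 ± 0.446 FPKM with PBS. As a share of the gene, Adar-002 was 55.0 ± 7.67% with bleomycin and 48.4 ± 7.21% with PBS, a difference within the spread. Both Zbp1 transcripts also lay wholly above PBS. Zbp1-001 (411 codons) averaged 6.15 ± 1.25 FPKM in bleomycin libraries and 0.911 ± 0.285 FPKM in PBS libraries, and Zbp1-002 (187 codons) averaged 7.72 ± 1.35 FPKM in bleomycin libraries and 1.92 ± 0.635 FPKM in PBS libraries. The Zbp1-001 share was 44.4 ± 8.98% with bleomycin and 33.0 ± 12.4% with PBS, again within the spread. The main Irf7 transcript, Irf7-001 (457 codons), averaged 8.35 ± 2.65 FPKM with bleomycin and 2.71 ± 0.269 FPKM with PBS, while its share was 59.1 ± 12.1% with bleomycin and 59.7 ± 5.09% with PBS.

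In other genes the split between transcripts moved from library to library. Oas2-001 was at 3.07, 4.10 and 3.63 FPKM in bleomycin libraries and was listed at 0, 1.00 and 0 FPKM in PBS libraries, whereas Oas2-002 had 0.619, 0.285 and 1.80 FPKM with bleomycin and 1.09, 0.0586 and 0.882 FPKM with PBS. The 2 Oas2 transcripts differ by 1 in their number of exons, and the sum was steadier than either. Gbp3-003 was at 8.46, 8.96 and 9.11 FPKM with bleomycin and 6.81, 1.87 and 3.14 FPKM with PBS. Counting only the transcript with the highest mean, Gbp3 had a larger change than in the sum, 1.12 against 0.57, but no call (adjusted p = 0.0831).

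**Figure D3:**
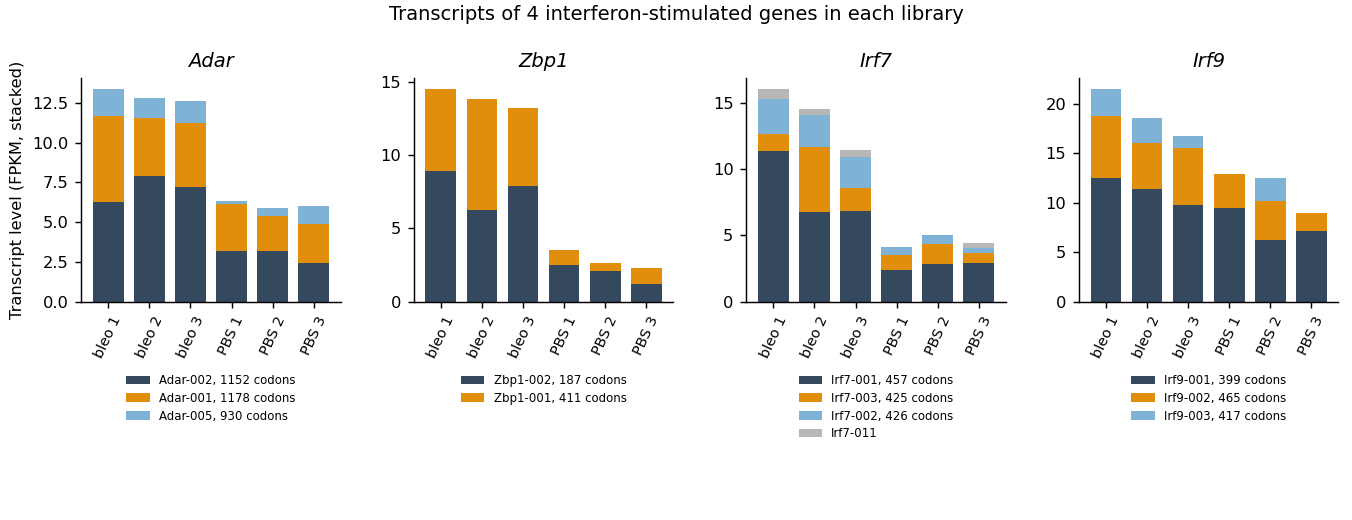
Transcript levels in FPKM, stacked by transcript, in each bleomycin library (left) and each PBS library (right) for Adar, Zbp1, Irf7 and Irf9. In Adar and Zbp1 every transcript is taller in the bleomycin bars, while the Irf9-003 segment is at 0 in PBS libraries 1 and 3.

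The share of promoters with the searched letters was compared with all promoters of the same length. On either strand, GAAANNGAAA occurred in 13 of the 24 matched members (54.2%) and in 3.99% of 27025 genes with a promoter in the table. By promoter, 13 of 30 member promoters (43.3%) held it, against 3.44% of 32851. TTCNNNGAA, which reads the same on both strands and stands for the GAS, occurred in 8 of 24 members (33.3%) and 9.55% of genes. The 2 motifs overlapped in Bst2 and Ifitm3. Of the 9 members that rose and had a promoter, 3 (Isg15, Oas1a and Gbp3) held the ISRE-type letters, 2 (Oas1a and Adar) the GAS-type letters and 4 either. Of the 15 that did not pass or were not tested, 10 held the first, 6 the second and 13 either. The members were listed for being induced by interferon, so the share with these letters is a description of the list. Neither motif was found in the windows of Irf7, Irf9, Trim25, Dtx3l and Ifi44, which says only that these letters are not in these windows.

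**Figure D4:**
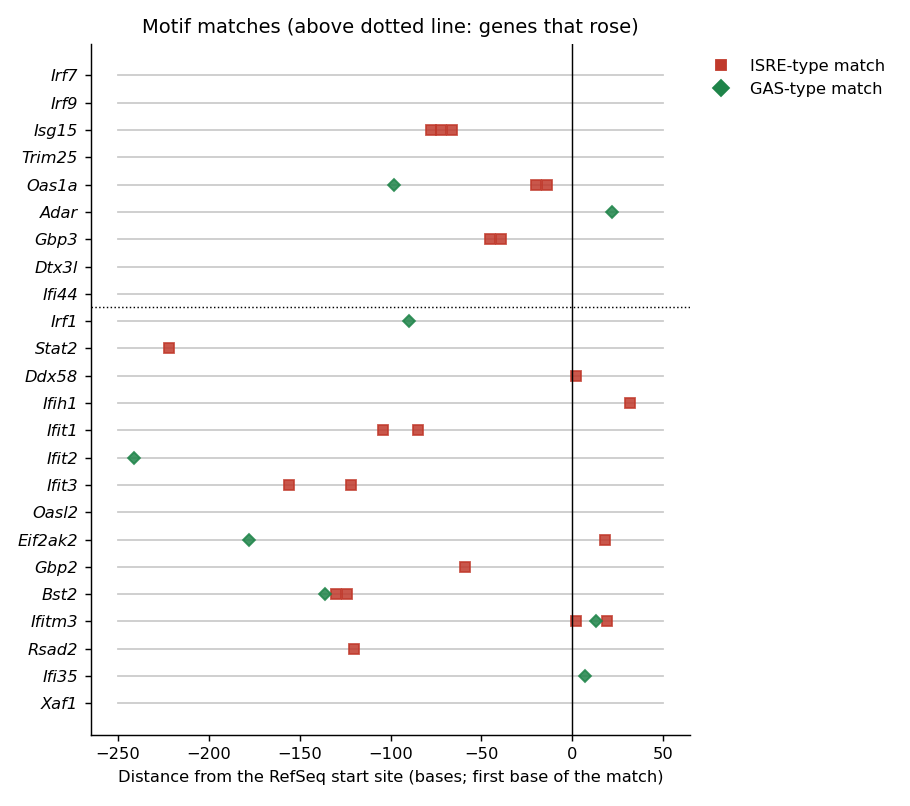
Position of each ISRE-type (square) and GAS-type (diamond) match in the promoter windows of the 24 matched members, in bases from the RefSeq start site, with genes that rose above the dotted line. Isg15, Oas1a and Gbp3 hold their ISRE-type matches within 78 bases of the start, and among the genes below the line 10 of 15 hold an ISRE-type match.

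The interferon ligands were represented by a single listed gene. Ifng, the gene of interferon gamma, which T and NK cells secrete, was at 10.5, 13.2 and 8.64 FPKM in bleomycin libraries and 0, 0.428 and 0.129 FPKM in PBS libraries. It rose by 3.31 ± 0.23 (adjusted p = 0.000245), and all 3 bleomycin values were far above the PBS values. The 10 T and NK cell markers were also higher with bleomycin. They summed to 256 to 482 FPKM in bleomycin libraries and 2.66 to 8.03 FPKM in PBS libraries, and all 10 rose. The part of those cells in the Ifng level was not tested. The other 20 ligand genes on the list, the interferons alpha, beta, epsilon, kappa, zeta and lambda, were not analysed here.

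None of the 6 interferon receptor subunits passed, although Ifnlr1 was called lower with equal medians and with quantile normalization (adjusted p = 0.0318 and 0.0225). Ifnar1, of the type I receptor, was at 17.3, 17.6 and 21 FPKM in bleomycin libraries and 13.5, 11.2 and 13.2 FPKM in PBS libraries (0.53, adjusted p = 0.0573), while its partner Ifnar2 was at 32.4, 40.2 and 41.5 FPKM with bleomycin and 58.8, 43.1 and 48.3 FPKM with PBS (-0.38, adjusted p = 0.178). The 2 chains of this receptor lay without overlap on opposite sides, but neither passed. Of the 6 receptor genes 2 lay wholly above and 2 wholly below, beside 27.0% and 15.6% of all listed genes. Of the interferon gamma receptor, Ifngr1 had 42.5, 53.9 and 83.8 FPKM with bleomycin and 38.3, 105 and 90.6 FPKM with PBS (-0.30, adjusted p = 0.654), and Ifngr2 had 15.0, 15.0 and 20.6 FPKM with bleomycin and 11.3, 9.34 and 5.23 FPKM with PBS (0.93, adjusted p = 0.0618). Ifnlr1, the lambda receptor chain of epithelial cells, was at 2.15, 2.30 and 1.52 FPKM with bleomycin and 3.16, 3.40 and 3.72 FPKM with PBS (-0.57, adjusted p = 0.0641). Il10rb, shared by the lambda and interleukin-10 receptors, was at 26.7, 14.1 and 23.9 FPKM with bleomycin and 32.6, 22.6 and 12.4 FPKM with PBS (-0.01, adjusted p = 0.99).

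Between receptor and target, 5 of 9 listed JAK and STAT genes rose and none fell, beside 15.2% higher and 7.34% lower over all tested genes. Stat3, Stat5a, Stat5b and Stat6 did not pass. With equal medians 3 of the 9 rose, and with the replicate block 2. Stat4, which is activated by interleukin-12 and type I interferon in lymphocytes, had 13.5, 14.8 and 9.17 FPKM in bleomycin libraries and 0.190, 0.770 and 0.265 FPKM in PBS libraries (3.26, adjusted p = 0.000352). Jak1, the kinase used by every interferon receptor, was at 97.8, 79.8 and 75.8 FPKM with bleomycin and 29.8, 37.6 and 40.2 FPKM with PBS (1.21, adjusted p = 0.00502). Tyk2 had 13.4, 11.8 and 13.2 FPKM with bleomycin and 7.14, 6.63 and 7.95 FPKM with PBS (0.75, adjusted p = 0.0158). These kinases did not overlap between groups. Jak2, the second kinase of the interferon gamma receptor, also rose, with 28.4, 22.0 and 20.8 FPKM with bleomycin and 13.6, 14.8 and 13.7 FPKM with PBS (0.70, adjusted p = 0.0277). The call of Jak2 was lost without bleomycin library 1 or 2 or any 1 PBS library (adjusted p 0.0622 to 0.0816) and also with equal medians, and that of Tyk2 without bleomycin library 1 or PBS library 2 (0.0518 to 0.0542).

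Among the other interferon regulatory factors, Irf4, Irf5 and Irf8 rose. Irf5, known from myeloid and B cells, had 24.5, 21.8 and 31.2 FPKM in bleomycin libraries and 2.45, 0.819 and 2.35 FPKM in PBS libraries (3.27, adjusted p = 0.000646). Irf4, a factor of lymphocytes and plasma cells, had 22.3, 10.1 and 16.5 FPKM with bleomycin and 1.62, 0.946 and 0.645 FPKM with PBS (3.02, adjusted p = 0.0012). Both were many times higher in every bleomycin library. Irf8, a factor of myeloid and B cells, was at 28.0, 26.3 and 51.7 FPKM with bleomycin and 14.7, 14.4 and 17.1 FPKM with PBS (1.09, adjusted p = 0.0337). The call of Irf8 was lost without bleomycin library 1 or any 1 PBS library (adjusted p 0.0549 to 0.0914), and also with equal medians. The B and plasma cell markers, 6 of 6 of which rose, summed to 445 to 887 FPKM in bleomycin libraries and 13.5 to 24.8 FPKM in PBS libraries.

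Upstream of interferon, 5 of 11 tested genes on the sensing list rose and none fell, beside 15.2% higher and 7.34% lower over all tested genes. With equal medians and with quantile normalization 4 rose. Mavs, Tlr3, Ticam1, Myd88, Traf3 and Trex1 did not pass. Samhd1, a nucleotide hydrolase that limits viral DNA synthesis, was at 96.6, 70.4 and 64.1 FPKM in bleomycin libraries and 27.8, 22.9 and 33.5 FPKM in PBS libraries (1.42, adjusted p = 0.0059). Tmem173, the gene of STING, had 22.0, 17.6 and 15.1 FPKM with bleomycin and 6.60, 6.27 and 8.58 FPKM with PBS (1.23, adjusted p = 0.00704). Ikbke, a kinase that activates Irf3 and Irf7, had 10.8, 9.48 and 12.9 FPKM with bleomycin and 4.78, 1.94 and 3.59 FPKM with PBS (1.48, adjusted p = 0.0123). In these 3 genes the groups did not overlap. Tlr7, an endosomal RNA receptor of dendritic cells and B cells, was at 2.31, 1.06 and 1.27 FPKM with bleomycin and listed at 0 in all PBS libraries (adjusted p = 0.00689), and Tbk1, the partner kinase of Ikbke, also rose, a call lost when any 1 library was left out (adjusted p 0.0662 to 0.113) and with equal medians or quantile normalization.

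Of 12 tested negative regulators, 2 rose and 1 fell, shares near those over all tested genes (15.2% higher and 7.34% lower). Ptpn6, the gene of the phosphatase SHP-1 of blood cells, was at 84.6, 59.1 and 61.0 FPKM in bleomycin libraries and 6.85, 7.77 and 7.60 FPKM in PBS libraries (3.03, adjusted p = 0.000179). Rnf125, a ubiquitin ligase that acts on RIG-I, had 12.9, 17.4 and 10.9 FPKM with bleomycin and 2.20, 1.95 and 5.34 FPKM with PBS (1.89, adjusted p = 0.0103). Socs2, a suppressor of cytokine signalling best known from growth hormone signalling, fell by 1.46 (adjusted p = 0.00705), with 13.7, 14.7 and 21.4 FPKM with bleomycin and 51.7, 54.2 and 36.1 FPKM with PBS. The phosphatase gene Ptpn1 did not pass, at 15.4, 11.5 and 20.5 FPKM with bleomycin and 5.35, 6.29 and 12.8 FPKM with PBS (0.93, adjusted p = 0.105).

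In a longer list of 74 other interferon-stimulated genes, as among the 34, genes were called higher and none lower. Of its 70 tested genes 42 rose, none fell and 28 did not pass, with a median log2 fold change of 1.05. Over all tested genes 15.2% were called higher and 7.34% lower. The list was chosen with earlier results of these data known. With equal medians 37 rose and with quantile normalization 32, and none fell in either. Of the 70 genes, 7 were at 1 FPKM or more in all bleomycin libraries and in no PBS library. Those 7 passed the filter on low values through the bleomycin libraries alone, so their count is only a description. The 4 with the smallest adjusted p were Epsti1, Aim2, Mndal and Phf11b. Aim2, a cytoplasmic DNA sensor of the inflammasome, was at 33.3, 22.2 and 23.9 FPKM in bleomycin libraries and 0.490, 0.388 and 1.19 FPKM in PBS libraries (4.03, adjusted p = 0.000198). Epsti1 had 50.3, 41.4 and 29.0 FPKM with bleomycin and 1.44, 1.77 and 2.24 FPKM with PBS (3.85, adjusted p = 0.000197). Both were far apart between groups. Mndal, of the same gene family as Aim2, had 61.8, 50.5 and 46.7 FPKM with bleomycin and 6.39, 7.96 and 7.92 FPKM with PBS (2.68, adjusted p = 0.000212), and Phf11b had 15.6, 12.4 and 11.4 FPKM with bleomycin and 1.94, 1.39 and 1.46 FPKM with PBS (2.44, adjusted p = 0.000352). The log2 fold changes of these 4 genes exceeded that of any of the 34 members, the largest of which was 2.02, and the difference was not tested.

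Markers of several cell types that the preparation could hold were summed in each library beside the interferon-stimulated genes. The lists do not cover every cell type of the lung. Monocyte and macrophage markers were at 790 to 3780 FPKM in bleomycin libraries and 1050 to 1410 FPKM in PBS libraries, so their sum overlapped although 9 of 11 rose. Lyz2 was the largest part of that sum in every library and did not pass. Its values were 3510, 618 and 463 FPKM with bleomycin and 1390, 1170 and 1030 FPKM with PBS. Of the 11 markers, 10 lay wholly above their PBS values. Csf1r, the first marker on this list, had 44.2, 24.0 and 36.2 FPKM with bleomycin and 2.84, 2.06 and 2.80 FPKM with PBS. Neutrophil markers were at 377 to 549 FPKM with bleomycin and 8.30 to 29.7 FPKM with PBS, and all 5 tested of 6 rose. Dendritic cell markers were at 70.3 to 106 FPKM with bleomycin and 44.0 to 60.0 FPKM with PBS, and 3 of 6 tested rose, but this list holds Bst2, itself a member. The first markers of the other lists followed their lists. Cd3d of T cells had 44.8, 39.3 and 27.8 FPKM with bleomycin and 0.0822, 0.52 and 0.599 FPKM with PBS, and Cd79a of B cells had 192, 147 and 116 FPKM with bleomycin and 4.04, 9.80 and 7.99 FPKM with PBS. Csf3r of neutrophils had 53.2, 24.6 and 33.1 FPKM with bleomycin and 0.805, 0.396 and 1.07 FPKM with PBS, and Flt3 of dendritic cells had 5.74, 3.62 and 3.01 FPKM with bleomycin and 0.313, 0.108 and 0.264 FPKM with PBS. All 4 were without overlap above PBS, as was Pecam1 of endothelium, with 56.0, 93.9 and 49.2 FPKM with bleomycin and 5.73, 5.03 and 6.23 FPKM with PBS. Epcam of epithelium had 31.6, 26.6 and 12.9 FPKM with bleomycin and 52.7, 48.1 and 41.6 FPKM with PBS, and Col1a1 of fibroblasts had 30.8, 76.3 and 131 FPKM with bleomycin and 318, 267 and 242 FPKM with PBS. No defining marker was listed at 0 in every library of either group. The epithelial markers, 0 of 5 called, summed to 112 to 272 FPKM with bleomycin and 249 to 522 FPKM with PBS. The fibroblast markers, 3 of 6 of which fell, summed to 422 to 1100 FPKM with bleomycin and 1750 to 2460 FPKM with PBS. The AT2 label was borne out by Sftpc, the surfactant protein C gene, at 5540, 5800 and 2360 FPKM with bleomycin and 20600, 14300 and 13400 FPKM with PBS, but fibroblast, leukocyte and endothelial markers were present in both groups. In every PBS library the fibroblast sum was above the leukocyte and endothelial sums.

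**Figure D5:**
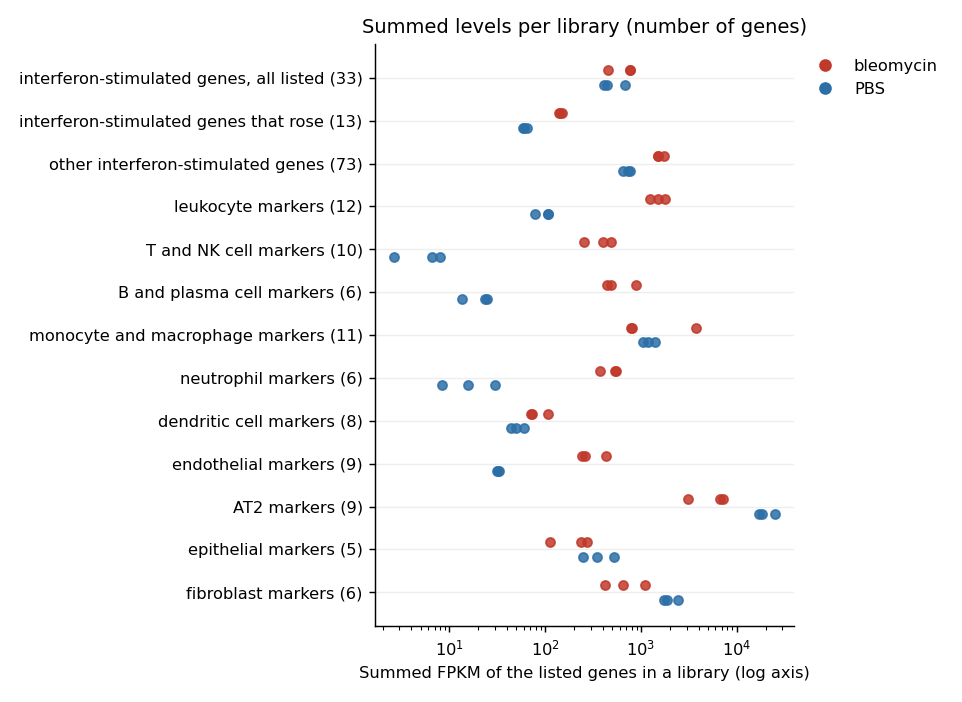
Summed FPKM per library on a log axis for interferon-stimulated genes and for each marker list, with the number of genes in parentheses and bleomycin above PBS in each row. The sum over all 33 listed members overlaps, at 450 to 775 FPKM with bleomycin and 415 to 689 FPKM with PBS. The 13 genes that rose, chosen by the call, lie at 138 to 150 FPKM with bleomycin and 59.3 to 64.7 FPKM with PBS. Separations are wider in the T and NK cell, B cell, neutrophil and leukocyte rows. The order is opposite in the AT2 and fibroblast rows.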

How the data were processed

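Total RNA of mouse AT2 preparations was isolated with TRIzol and sequenced with the KAPA stranded kit, per the labels' protocols, and 3 bleomycin and 3 PBS libraries were grouped by sample title. HISAT2, StringTie and the build mm10 are named per the submitters' processing notes. The sources used here do not give the annotation, the use of strand in counting, the choice of listed transcripts or any batch. The authors deposited FPKM values for the same 24647 transcripts in each library, per the file headers, so read depth is unknown and no counting interval is given. Library sums of the listed values were 253146 to 300697, and an exact 0 can be a failed estimate.

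FPKM were summed by gene ID. Genes at 1 FPKM or more in at least 3 of 6 libraries, 12326 in all, were tested on log2(FPKM + 1) with limma 3.58.1 in R 4.3.3 (group as the only term, eBayes with trend, Benjamini-Hochberg adjustment over all tested genes, threshold 0.05). Genes at that level only in bleomycin libraries, Ifi44, Ifng, Stat4 and Tlr7 among them, passed this filter through that group alone. The fit was also run on simulated data. Changed genes were drawn there only from those with higher levels, so that run cannot speak for members with low levels. Of the 57 member transcripts, 55 have the same version and coordinates in GENCODE M21 (GRCm38, the same build). Promoters came from RefSeq (GRCm38.p6). The members, the pathway lists and the marker lists were chosen with earlier results of these data known. All 34 members, the 4 genes of each pathway list with the smallest adjusted p, all listed ligands and receptors, the summed level of each marker list and the first marker of each are named, except that some genes this rule takes are not reported here. The alternatives covered the pseudocount, the filter, scaling, the transcript sum, the variance trend, library weights, a replicate block and each library left out. No batch could be split, as none is labelled.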

Additional observations from a re-analysis of the deposited data

How the results depend on the processing

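With equal library medians the median change over the tested genes was -0.07 (log2), against 0.09 as reported, and 1475 genes rose and 1412 fell, against 1871 and 905. With quantile normalization the median was -0.08, with 1431 higher and 1441 lower. Over the 30 tested members the median was 0.43 with equal medians and 0.44 with quantile normalization, against 0.60, and over the 33 listed it was 0.39 with a pseudocount of 5, against 0.64. With the replicate block Isg15, Irf9, Gbp3 and Ifi44 had no call (adjusted p 0.0606 to 0.0889). The number of members that rose, 13 as reported, ranged over 9 to 15 across the alternative settings (10 with equal medians, 9 with quantile normalization, 11 with the highest transcript, 15 with library weights) and 9 to 13 with 1 library left out, and none fell in any of them. With 1 library left out the number of all genes that fell was 457 to 873, and the number of members wholly below PBS was 0 to 2. Deviations of equal-numbered libraries from their group means correlated with r of -0.00431, 0.0172 and 0.0391. With so few libraries a group these values cannot decide whether the replicate numbers mark pairs, and the labels do not say. With the replicate block 1359 genes rose, 563 fell and 9 members rose. Members without a call changed sign as follows, and the cause was not tested. With 1 library left out, Ifitm3 ranged over -2.42 to 0.65, Ifi27l2a over -0.11 to 0.27, Ifih1 over -0.10 to 0.11 and Eif2ak2 over -0.13 to 0.24. Ifih1 was -0.14 with equal medians, -0.18 with quantile normalization, -0.01 with library weights, -0.06 without bleomycin library 3 and -0.10 without PBS library 2. Eif2ak2 was -0.05 with equal medians, -0.09 with quantile normalization and -0.13 without PBS library 2. Rtp4 was -0.02 with quantile normalization, -0.04 with library weights and -0.16 without bleomycin library 1. Ifi27l2a was -0.12 with equal medians and -0.11 without bleomycin library 2, Ifit2 was -0.03 with quantile normalization, and Ifitm3 was 0.65 without bleomycin library 3. Depth is unknown, so the precision of low values such as those of the Ifit genes cannot be given.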
